A study of Homo sapiens with 12 samples.

Results

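Expression of 30 genes of cholesterol synthesis, sterol uptake and sterol sensing was followed in Caco-2, a human cell line from a colon carcinoma whose confluent cultures acquire features of enterocytes. The genes were chosen by name from this pathway, with earlier results of these data known. Of the 30, 28 were measured among 19775 genes in all, and each was read from 1 probe set, that with the highest mean over 12 arrays. FDFT1 and CYP51A1 had no probe set with a single gene symbol in the platform annotation and are not analysed here. All flasks held cells of passage 22 that had been confluent for 21 days. Exposure lasted 24 h in 20 mL of DMEM with 1% ITS, a supplement of insulin, transferrin and selenium. Serum is also recorded for all 12 samples, at the same percentage. Whether serum was present during the exposure or only in the culture before it was not resolved here. Of the 4 groups of 3 arrays, one received silver ions as AgNO3 at 0.5 µg/mL, and the other three formed a dose series of medium alone, 2.5 µg/mL and 25 µg/mL of surfactant coated silver nanoparticles (AgPURE). No arrays of the surfactant without silver were analysed here, and whether arrays of a group derive from different cultures is not stated, so the p-values reflect only how these arrays scatter, possibly for technical reasons.

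Cells make cholesterol from acetyl-CoA through mevalonate, isoprenoid diphosphates, squalene and lanosterol. The enzymes are largely controlled by SREBP-2, a transcription factor held in the endoplasmic reticulum membrane in complex with SCAP. When sterols are scarce, SCAP carries SREBP to the Golgi, where proteases release the part that enters the nucleus, and when sterols are plentiful, INSIG proteins retain the complex. Enterocytes also take up cholesterol from the gut lumen through NPC1L1, esterify it with SOAT2 for export in lipoproteins, and return plant sterols and excess cholesterol to the lumen through ABCG5 and ABCG8.

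Values are RMA log2 expression values as deposited, without detection calls, so a level near the bottom of the scale has no stated background. A gene was called when its adjusted p was under 0.05 (limma, Benjamini-Hochberg over all 19775 genes), and "rose" and "fell" refer to called genes only. The silver response was present at 25 µg/mL, where HMOX1, which encodes haem oxygenase, was 17.2-fold higher than in medium and the metallothionein gene MT1X 10.3-fold higher. The arrays at 25 µg/mL stood apart from the medium arrays, with correlations across probe sets between 0.978 and 0.981, whereas arrays within a group correlated between 0.992 and 0.996. Their spiked-in control probe sets also read higher, by 0.61 (poly-A) and 0.43 (hybridization) on the log2 scale relative to medium, and centring the arrays on these controls moved the median of all genes to -0.62 and -0.44, against -0.01 as deposited. Every direction below is relative to the deposited normalization. Of the ion arrays, replicate 1 stood apart, with the lowest value of its group in 23 of the 28 genes, against 39.9% of all genes. Of 16 enterocyte and epithelial markers, 10 lay above the median of all genes in medium, among them EPCAM, VIL1 and CDH17, while SI, FABP2, SLC5A1, ANPEP and KRT20 were among those below it. Of the other marker lists, 1 of 5 fibroblast genes (COL1A1), 1 of 3 leukocyte genes (CD14) and 0 of 3 endothelial genes lay above it. The mean of the enterocyte list was between 7.40 and 7.44 on the 25 µg/mL arrays and between 7.62 and 7.72 on the medium arrays. Of its 16 markers 5 were called lower and 1 higher, against 19.3% and 14.1% of all genes. In the other lists LUM and CD14 were called lower and COL1A2 and CDH5 higher. Whether the shift of the enterocyte list plays a part in the results below was not tested. In bulk RNA, fewer cells of a type and less RNA per cell cannot be told apart.

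The starts of 6 of these genes are shown as RefSeq sequence (GRCh38.p14). SREBP is known to act beside NF-Y at promoters of this pathway. Whether either factor had a part in the changes below was not tested. Capitals mark matches to TCACNCCAC or TCACNTGA, forms of the sterol regulatory element, and to CCAAT, the box bound by NF-Y, on either strand. Each line gives the 200 bases before the gene's start, 5′ to 3′ on the gene's strand. MSMO1, MVD, EBP and INSIG1 are shown as genes with large falls. SREBF2 is shown as the only member with the first sterol element form, and SREBF1 as a gene that moved the other way. EBP and INSIG1 are also the only members in which the second form was found. TM7SF2 fell more than EBP and INSIG1 (log2 fold changes of -0.74, -0.69 and -0.65) and is not shown. In its window an NF-Y box and neither sterol element form was found. They lie at chr4:165327469-165327668 (MSMO1, plus strand), chr16:88663092-88663291 (MVD, minus strand), chrX:48521608-48521807 (EBP, plus strand), chr7:155297678-155297877 (INSIG1, plus strand), chr22:41832905-41833104 (SREBF2, plus strand) and chr17:17836987-17837186 (SREBF1, minus strand).
MSMO1: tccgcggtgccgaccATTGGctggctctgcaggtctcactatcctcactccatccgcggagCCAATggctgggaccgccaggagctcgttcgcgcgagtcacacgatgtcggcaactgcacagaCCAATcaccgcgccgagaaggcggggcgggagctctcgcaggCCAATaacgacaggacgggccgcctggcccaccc
MVD: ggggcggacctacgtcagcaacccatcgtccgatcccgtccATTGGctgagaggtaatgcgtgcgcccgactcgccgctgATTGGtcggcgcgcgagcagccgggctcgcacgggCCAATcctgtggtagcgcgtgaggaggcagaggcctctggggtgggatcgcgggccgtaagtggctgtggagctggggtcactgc
EBP: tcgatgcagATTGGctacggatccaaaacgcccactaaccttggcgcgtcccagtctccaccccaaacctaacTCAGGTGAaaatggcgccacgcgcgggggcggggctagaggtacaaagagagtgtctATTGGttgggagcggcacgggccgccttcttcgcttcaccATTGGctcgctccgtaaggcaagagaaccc
INSIG1: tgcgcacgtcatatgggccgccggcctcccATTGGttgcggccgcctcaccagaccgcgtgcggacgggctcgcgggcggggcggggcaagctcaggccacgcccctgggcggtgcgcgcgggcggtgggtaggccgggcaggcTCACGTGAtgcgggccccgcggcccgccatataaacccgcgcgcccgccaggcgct
SREBF2: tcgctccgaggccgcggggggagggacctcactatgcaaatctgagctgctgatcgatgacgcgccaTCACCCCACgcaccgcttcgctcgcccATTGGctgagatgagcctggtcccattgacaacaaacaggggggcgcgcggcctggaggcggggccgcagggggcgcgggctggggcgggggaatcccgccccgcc
SREBF1: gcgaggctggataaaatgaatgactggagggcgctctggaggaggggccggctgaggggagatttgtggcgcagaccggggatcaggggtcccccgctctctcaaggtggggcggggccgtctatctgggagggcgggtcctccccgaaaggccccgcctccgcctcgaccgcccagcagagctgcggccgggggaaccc

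MSMO1 and MVD carry 4 and 3 NF-Y boxes in these stretches and no sterol element form. EBP carries 3 NF-Y boxes and INSIG1 and SREBF2 1 each, all beside 1 sterol element form. The stretch of SREBF1 has none of these matches. RefSeq promoter windows, from 250 bases before to 50 after a gene's start, were at hand for 25 of the 28 measured genes, 31 windows in all. For SREBF1 only 1 window was at hand, so any other start of that gene was not searched. CCAAT was found in 20 of the 31 windows (64.5%), against 34.6% of all 35116 windows. TCACNCCAC was found in 1 window (3.23%), against 1.13% of all, and TCACNTGA in 2 (6.45%), against 3.79% of all. The E-box CANNTG, which any TCACNTGA match contains, was found in 18 windows (58.1%), against 68.7% of all. Counted by gene, at least 1 NF-Y box was present in 18 of the 25 genes (72%), against 39.7% of all genes with a window. By call at 25 µg/mL, these were 11 of 13 genes with a window that fell, 7 of 10 that were not called and 0 of 2 that rose. The calls were not tested against each other for the box. These matches describe the letters in the windows and are not evidence of binding.

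**Figure D1:**
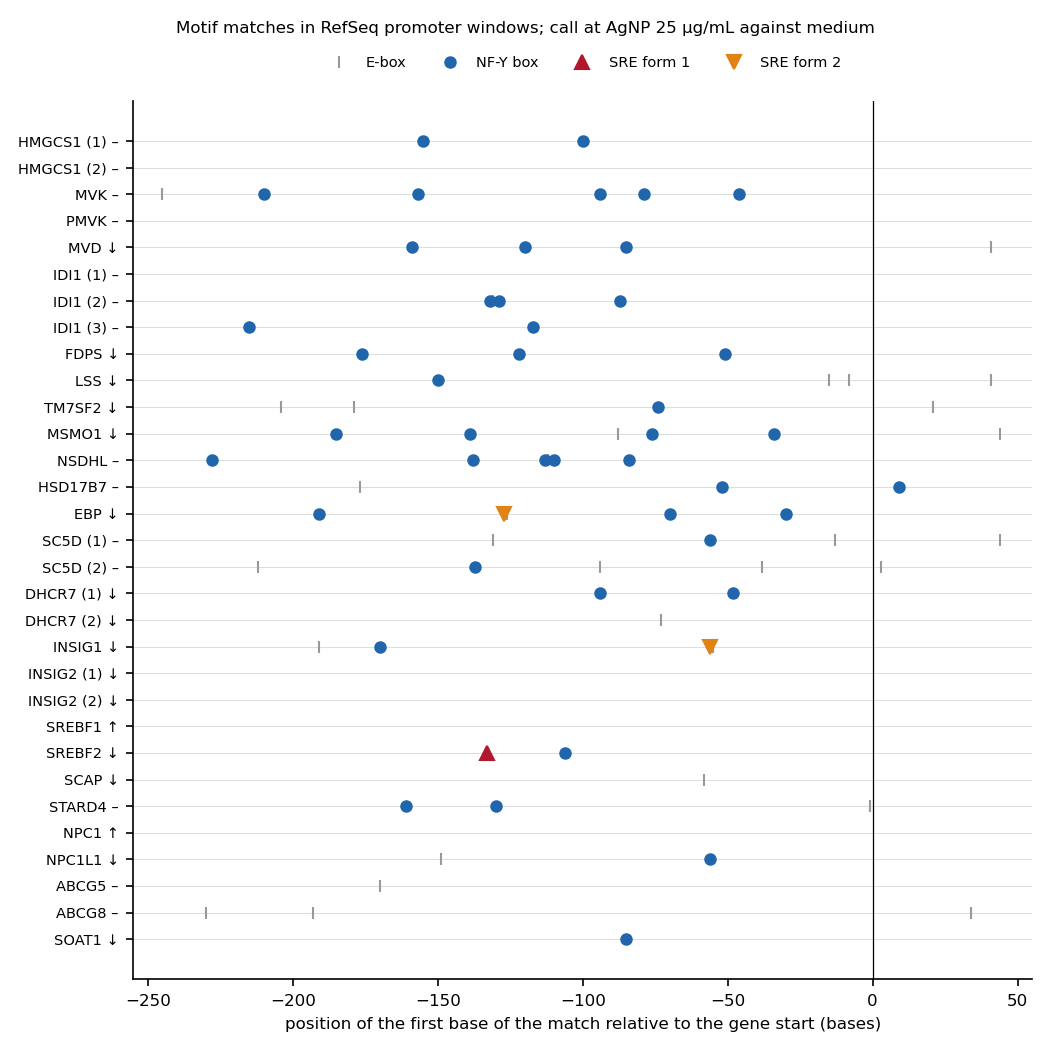
Positions of motif matches, in bases from the gene start, in the promoter windows of 25 measured genes (1 row per window; numbers in brackets where a gene has several). Arrows give the call at 25 µg/mL against medium (down, up or a dash for not called); the E-box inside each second sterol element form is hidden by its triangle. NF-Y boxes are in 20 of the 31 rows.

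At 25 µg/mL, cholesterol synthesis genes were mostly lower than in medium, and the genes that sense sterols were lower with them. By limma, 16 of 28 genes fell (57.1%), against 19.3% of all genes, and 2 rose (7.14%), against 14.1% of all genes. The median log2 fold change of the 28 genes was -0.34, against -0.01 for all genes. On all 3 arrays, 18 genes lay below and 2 above every medium array, against 25.9% and 19.8% of all genes. Under poly-A and hybridization scaling 26 and 25 genes were lower and 0 higher, against 71.2% and 64.9% of all genes lower and 0.905% and 2.57% higher. The medians of the 28 genes were then -0.95 and -0.76, against -0.62 and -0.44 for all genes. Of the 10 genes not called as deposited, 10 and 9 were called lower under these scalings, with log2 fold changes of -0.87 to -0.50 and -0.68 to -0.31, so that "not called" below holds for the deposited scale only. Falls ranged between 1.26-fold (SOAT1) and 2.24-fold (SOAT2).

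**Figure D2:**
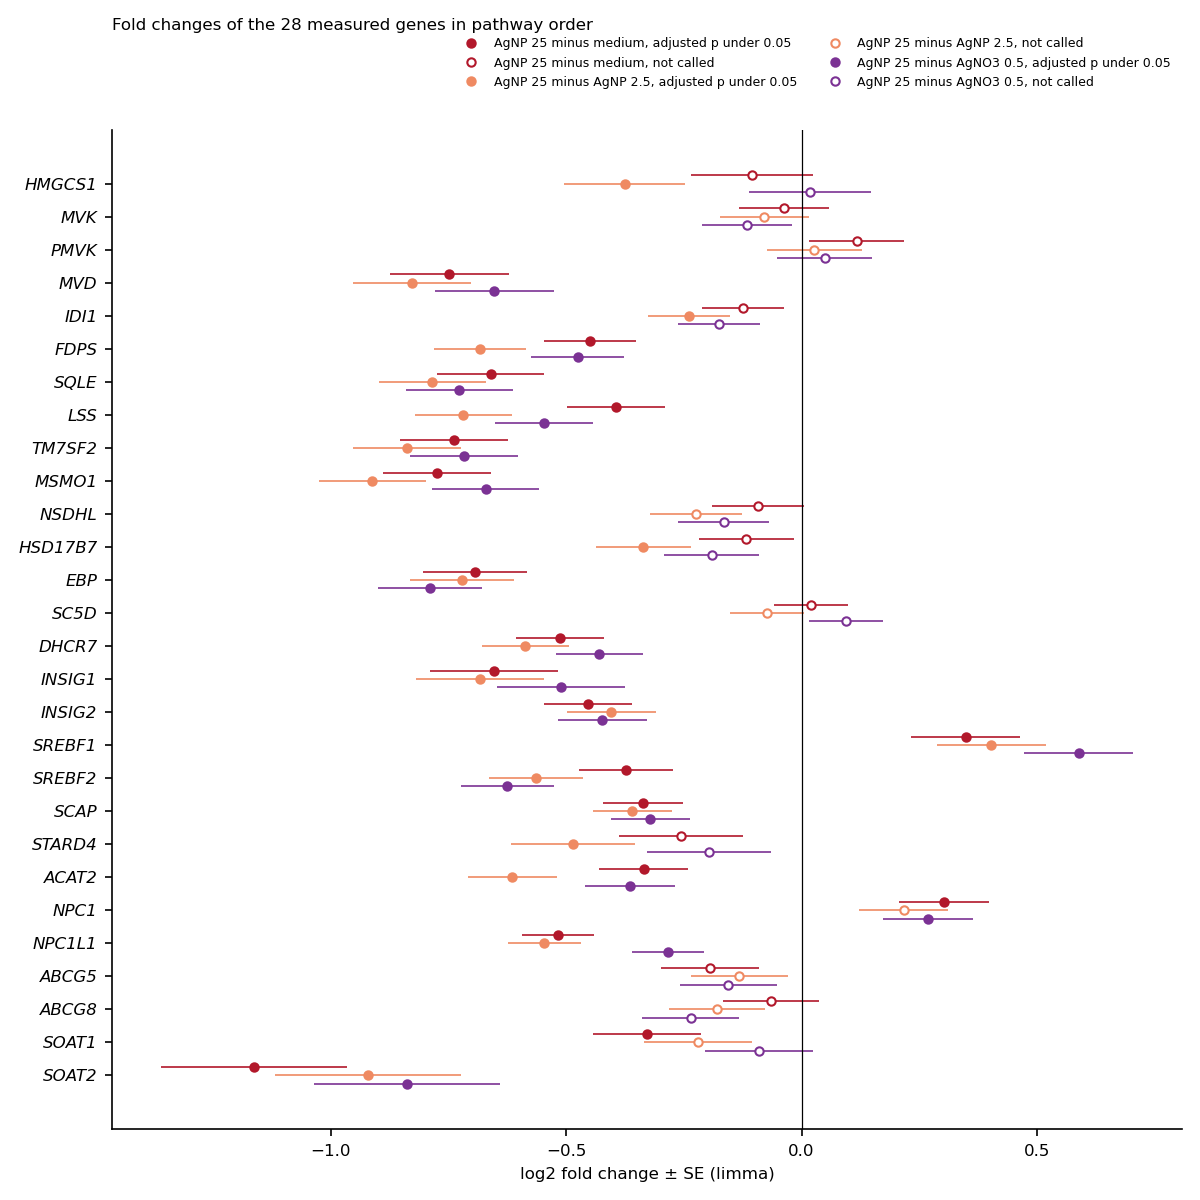
Log2 fold changes (x axis, ± SE from limma) of the 28 measured genes in pathway order, for 25 µg/mL nanoparticles minus medium, minus 2.5 µg/mL and minus silver ions. Filled points have an adjusted p under 0.05. The 3 comparisons share the 25 µg/mL arrays; MVD, SQLE, TM7SF2, MSMO1, EBP and SOAT2 lie left of -0.6 in all 3, and SREBF1, NPC1 and PMVK lie right of 0 in all 3, PMVK without a call.

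On the probe sets used, the mevalonate arm split by calls, and called and uncalled genes were not tested against each other. MVD, the decarboxylase that turns mevalonate diphosphate into the isoprenoid unit, had log2 values of 5.86, 6.38 and 6.35 on the 25 µg/mL arrays, against 6.89, 6.90 and 7.03 in medium, a log2 fold change of -0.75 ± 0.13 (± SE from limma here and below, adjusted p = 0.00031). Its array 1 at 25 µg/mL was the lowest, and all 3 lay below every medium array. FDPS, which joins isoprenoid units into farnesyl diphosphate, had 9.85, 10.04 and 10.09, against 10.28, 10.49 and 10.56 in medium (-0.45 ± 0.10, adjusted p = 0.0024), again without overlap. The other 4 enzymes of this arm were not called on the probe sets used. HMGCS1, the synthase that feeds the pathway, had 10.41, 10.42 and 10.21 at 25 µg/mL, against 10.36, 10.36 and 10.64 in medium, so its groups overlapped, and the 95% interval of its log2 fold change was -0.38 to 0.17. The mevalonate kinase genes MVK and PMVK had log2 fold changes of -0.04 and 0.12, and the isomerase gene IDI1 -0.12 with an interval of -0.31 to 0.06. A dimmer MVK probe set, that of largest variance, changed by -0.74. MVK was called lower with that probe set (adjusted p = 0.008 by limma) and with the mean of its probe sets (-0.24, adjusted p = 0.016). The second HMGCS1 probe set pointed the other way, at 0.55 (adjusted p = 0.0501 over all probe sets). Taken for the gene as the one of largest variance, it was called higher (adjusted p = 0.042 by limma over all genes). The HMGCS1 probe sets thus did not give 1 direction.

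After squalene, falls ran along the sterol enzymes, where 6 of 9 measured genes fell and 0 rose, against 19.3% and 14.1% of all genes. SQLE, squalene epoxidase, the first oxygen-requiring step, had 10.29, 10.33 and 10.33 at 25 µg/mL, against 10.88, 10.93 and 11.12 in medium (-0.66 ± 0.11, adjusted p = 0.00036). The groups did not overlap, and all 4 SQLE probe sets were lower and called when every probe set was tested. LSS, which closes the rings to lanosterol, had 8.69, 8.64 and 8.84, against 9.03, 9.30 and 9.02 in medium (-0.39 ± 0.10, adjusted p = 0.0082).

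MSMO1, a monooxygenase that removes methyl groups from the sterol ring, had the smallest adjusted p of the 28 genes, with 10.87, 10.86 and 10.91 at 25 µg/mL, against 11.63, 11.55 and 11.78 in medium (-0.77 ± 0.11, adjusted p = 9.6e-05). The sterol reductase gene TM7SF2 had 7.56, 7.84 and 7.75, against 8.30, 8.46 and 8.61 in medium (-0.74 ± 0.11). The sterol isomerase gene EBP had 9.67, 9.72 and 9.80, against 10.26, 10.37 and 10.64 in medium (-0.69 ± 0.11). In all 3 genes the groups were separate by more than the range within either, though a dim EBP probe set had a log2 difference of 0.22. DHCR7, the reductase of the last step to cholesterol, had 9.13, 9.15 and 9.23, against 9.62, 9.71 and 9.72 in medium (-0.51 ± 0.09), although its second probe set had a log2 fold change of only -0.04. The adjusted p values of TM7SF2, EBP and DHCR7 were 0.00015, 0.0002 and 0.00056. NSDHL and HSD17B7, which work with MSMO1 in the removal of the methyl groups, and the desaturase gene SC5D were not called. Their log2 fold changes were -0.09, -0.12 and 0.02, with intervals of -0.30 to 0.12, -0.33 to 0.10 and -0.15 to 0.19, which leave out falls of the size seen for MSMO1. The probe set of HSD17B7 is of a type that can share sequence with other transcripts, and a pseudogene copy is annotated, so its value is uncertain. The IDI1 probe set used here is of the same type, so the IDI1 values carry this limit too.

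**Figure D3:**
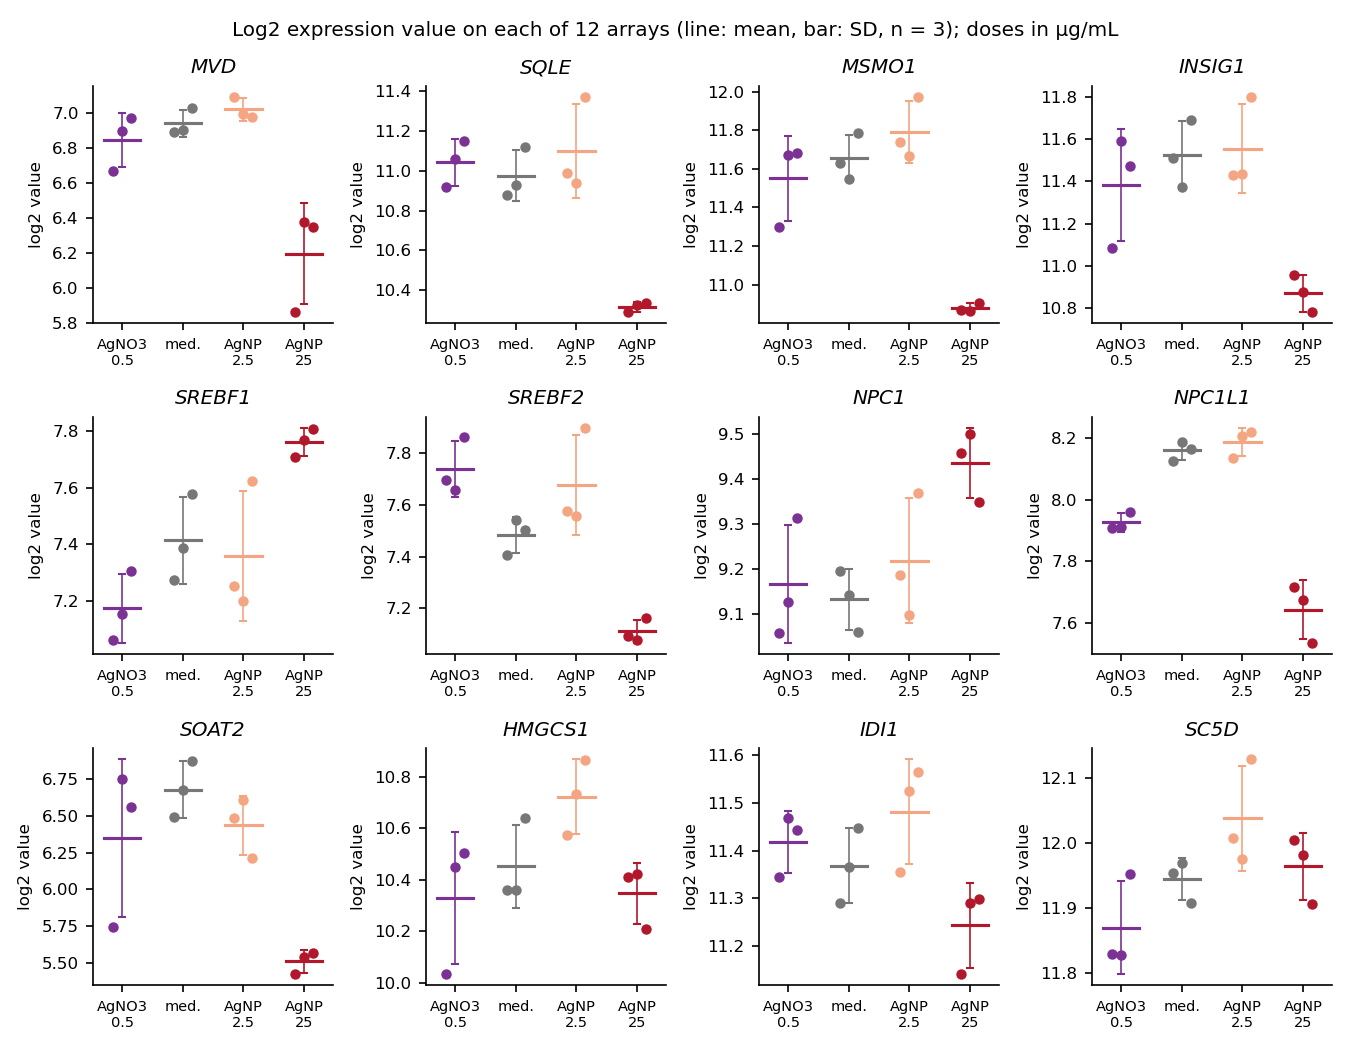
Log2 values on each of the 12 arrays for 12 of the genes (points: arrays, line: mean, bar: SD, n = 3), for AgNO3 at 0.5 µg/mL, medium, and nanoparticles at 2.5 and 25 µg/mL; each panel has its own y axis, which does not start at 0. The 25 µg/mL arrays are apart and low in MVD, SQLE, MSMO1, INSIG1, SREBF2, NPC1L1 and SOAT2, and above the other groups in SREBF1.

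All 5 genes of SREBP control were called, 4 lower and 1 higher, against 19.3% and 14.1% of all genes. INSIG1, itself a target of SREBP and the retention partner of SCAP, had 10.96, 10.88 and 10.78 at 25 µg/mL, against 11.51, 11.37 and 11.69 in medium (-0.65 ± 0.14, adjusted p = 0.0016), and its 3 probe sets were all lower. INSIG2, its paralogue, which is less dependent on SREBP, had 7.57, 7.83 and 7.83, against 8.09, 8.25 and 8.25 in medium (-0.45 ± 0.09, adjusted p = 0.0016). SCAP, the sterol-sensing escort, had 8.33, 8.27 and 8.29, against 8.59, 8.55 and 8.75 in medium (-0.34 ± 0.08, adjusted p = 0.0063). None of the 3 genes overlapped between the groups.

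The 2 SREBP genes moved apart. SREBF2, which encodes SREBP-2, had 7.09, 7.08 and 7.16 at 25 µg/mL, against 7.41, 7.54 and 7.50 in medium (-0.37 ± 0.10, adjusted p = 0.0089), a call lost with the mean of its 3 probe sets (-0.21, adjusted p = 0.11). SREBF1, which encodes the SREBP-1 forms that favour fatty acid synthesis, had 7.71, 7.77 and 7.81, against 7.28, 7.39 and 7.58 in medium (0.35 ± 0.12, adjusted p = 0.031). The SREBF1 rise was lost without any single array of the 2 groups except medium replicate 3, and poly-A or hybridization scaling reversed its sign (-0.26 and -0.08). The difference between the changes of the 2 genes does not depend on scaling, but it does depend on the probe sets. SREBF1 changed by 0.72 more than SREBF2 on the log2 scale, and the per-array differences did not overlap between groups (two-sided p = 0.1 by exact permutation, which 3 against 3 arrays cannot go below; chosen after the values were seen). With the mean of each gene's probe sets, also tried after the values were seen, it was 0.47, again without overlap, and a second SREBF2 probe set of similar level changed by 0.01.

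Among sterol transport genes, NPC1L1, the importer of luminal cholesterol, fell and the lysosomal exporter gene NPC1 rose. NPC1L1 had 7.72, 7.68 and 7.53 at 25 µg/mL, against 8.13, 8.19 and 8.17 in medium (-0.52 ± 0.08, adjusted p = 0.0001), and the groups did not overlap. NPC1 had 9.46, 9.50 and 9.35, against 9.20, 9.14 and 9.06 in medium (0.30 ± 0.10, adjusted p = 0.023), a rise that lost its call without medium replicate 2 or 3 or 25 µg/mL replicate 1 or 2. Scaled to the poly-A or hybridization controls, NPC1 changed sign, to -0.31 or -0.12, and a dimmer probe set of the gene was higher by 1.33 as deposited. STARD4, a soluble sterol carrier, had 9.47, 9.60 and 9.61, against 9.82, 9.76 and 9.86 in medium (-0.26 ± 0.13, adjusted p = 0.16), and was not called although the arrays did not overlap. The hemitransporter genes ABCG5 and ABCG8 lay at means of 3.40 and 3.61 at 25 µg/mL and 3.59 and 3.68 in medium. Among all genes these levels rank at percentiles 5.19 and 9.7, and neither gene was called, although the ABCG5 arrays at 25 µg/mL lay below all medium arrays.

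Of the genes for esterification and acetyl-CoA handling, all 3 fell, against 19.3% of all genes. SOAT2, the sterol acyltransferase of enterocytes and hepatocytes, had the largest fold of the 28 genes, with 5.43, 5.54 and 5.57 at 25 µg/mL, against 6.49, 6.67 and 6.87 in medium (-1.16 ± 0.20, adjusted p = 0.00033). Its mean of 5.51 at 25 µg/mL lay below the median of all gene means, 5.80, and no background level is stated for it. Its paralogue SOAT1 had 8.26, 8.25 and 8.23, against 8.58, 8.67 and 8.47 in medium (-0.33 ± 0.11, adjusted p = 0.039), a call lost without any 1 array of the 2 groups except medium replicate 3, while its other two probe sets had larger falls, of -0.77 and -0.63. ACAT2, the cytosolic thiolase that makes acetoacetyl-CoA, had 9.63, 9.78 and 9.74, against 9.99, 10.08 and 10.08 in medium (-0.34 ± 0.09, adjusted p = 0.013), a call lost without 25 µg/mL replicate 1.

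At 2.5 µg/mL 0 of 28 genes were called, as were 0% of all genes, and by limma 4 of the 28 (FDPS, LSS, HSD17B7 and ACAT2) had an unadjusted p under 0.05, against 900 of all 19775 genes. The means of 23 of the 28 genes lay above medium, against 50.6% of all genes, with a median log2 difference of 0.09. That count was 17 without 2.5 µg/mL replicate 3, against 50.4% of all genes, and between 20 and 24 without any other array of the 2 groups. It was 27 under poly-A and 16 under hybridization scaling, against 88.8% and 22.9% of all genes. Replicate 3 had the highest value of its group in 19 of the 28 genes, against 36.4% of all genes, and medium replicate 3 likewise in 19, against 29.7% of all genes. Medium replicate 1 had the lowest value in 17, against 33.8% of all genes. LSS had 9.40, 9.40 and 9.53 at 2.5 µg/mL, against 9.03, 9.30 and 9.02 in medium (0.32 ± 0.10, unadjusted p = 0.0072, adjusted p = 0.998). ACAT2 had 10.37, 10.35 and 10.27, against 9.99, 10.08 and 10.08 in medium (0.28 ± 0.09, unadjusted p = 0.011). In these 2 genes and in FDPS, SC5D, SREBF2 and STARD4 all 2.5 µg/mL arrays lay above all medium arrays, as in 5.45% of all genes, and none passed the adjusted test.

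The 25 µg/mL arrays were also set against the lower dose. By limma 19 of 28 genes were lower than at 2.5 µg/mL (67.9%), against 20.3% of all genes, and 1 higher (3.57%), against 13.7% of all genes, with a median of -0.45. HMGCS1, IDI1, HSD17B7 and STARD4 were called here and not against medium. HMGCS1 had 10.41, 10.42 and 10.21 at 25 µg/mL, against 10.57, 10.73 and 10.87 at 2.5 µg/mL (-0.38 ± 0.13, adjusted p = 0.036), but its second probe set again pointed the other way (0.27, adjusted p = 0.37 over all probe sets). STARD4 had 9.47, 9.60 and 9.61, against 9.89, 9.88 and 10.36 at 2.5 µg/mL (-0.49 ± 0.13, adjusted p = 0.0097). SOAT1, lower than medium, was not called here (-0.22 ± 0.11, adjusted p = 0.16), nor was NPC1 (0.22 ± 0.10, adjusted p = 0.099). SREBF1 was the gene called higher, with 0.40 ± 0.12, a call lost without 2.5 µg/mL replicate 1 or 2 and under control scaling.

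**Figure D4:**
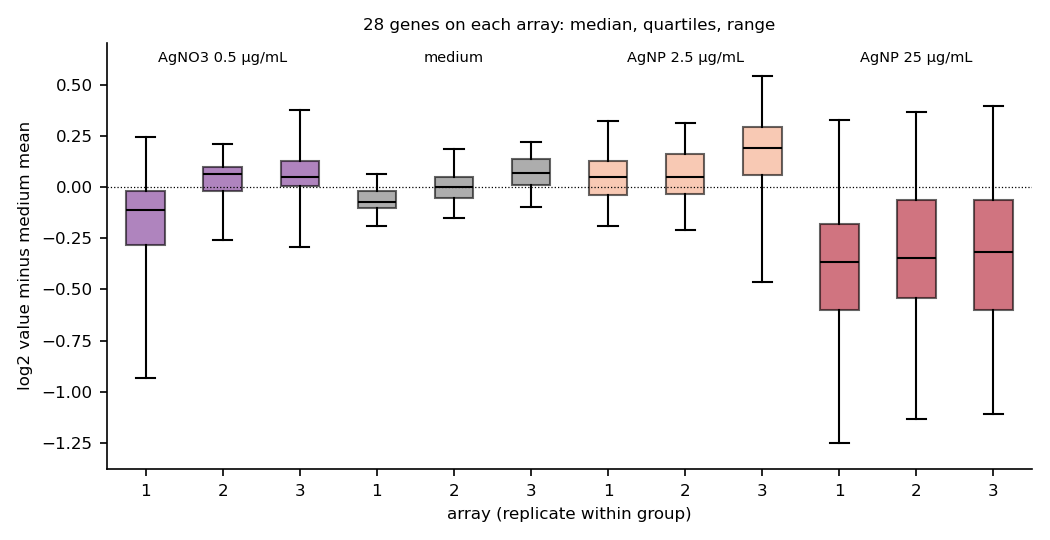
Log2 value minus the gene's mean in medium (y axis) for the 28 genes on each array (box: median and quartiles, whiskers: full range), by group. The medians of the 25 µg/mL arrays lie between -0.37 and -0.32, those of the medium arrays between -0.07 and 0.07, and ion replicate 1 lies at -0.11.

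With silver ions at 0.5 µg/mL 0 of 28 genes were called, as were 0% of all genes, and by limma 2 of the 28 had an unadjusted p under 0.05, against 1233 of all 19775 genes. The median log2 difference from medium was -0.02, or 0.03 without ion replicate 1. Those 2 genes went in opposite directions. NPC1L1 had 7.91, 7.91 and 7.96 with ions, against 8.13, 8.19 and 8.17 in medium (-0.23 ± 0.08, unadjusted p = 0.0087, adjusted p = 0.78). SREBF2 had 7.69, 7.66 and 7.86, against 7.41, 7.54 and 7.50 in medium (0.25 ± 0.10, unadjusted p = 0.023, adjusted p = 0.78). The groups did not overlap in either gene. On ion replicate 1, 15 of the 28 genes lay below every medium array, against 5 and 2 on replicates 2 and 3. The share of all genes was not computed for this count. Replicate 1 had the lowest value of its group in 23 of the 28 genes, against 39.9% of all genes. SOAT2 was at 5.74 on that array and at 6.75 and 6.56 on the others.

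The nanoparticle and ion groups differ in dose as well as in form. At 25 µg/mL, 15 of 28 genes were lower than with ions (53.6%), against 18.6% of all genes, and 2 were higher (7.14%), against 13.7% of all genes, with a median of -0.30. EBP had 9.67, 9.72 and 9.80 at 25 µg/mL, against 10.35, 10.60 and 10.61 with ions (-0.79 ± 0.11, adjusted p = 7.1e-05), SREBF2 was lower (-0.63 ± 0.10, adjusted p = 0.0002) and SREBF1 higher by 0.59 ± 0.12 (adjusted p = 0.0012). Without ion replicate 1 the counts were 15 lower and 1 higher. Between 2.5 µg/mL nanoparticles and ions 0 of 28 genes were called, as were 0% of all genes, with 5 of the 28 at an unadjusted p under 0.05 by limma, against 1735 of all 19775 genes. All these comparisons share arrays with those above and are not independent of them.

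Other sterol and lipid genes were read from 5 lists, which were chosen with earlier results of these data known. Their changes at 25 µg/mL against medium are counts without a test of the list. Set beside all genes, these counts are therefore descriptions and not independent support. The genes named from the lists were called, with adjusted p between 5.2e-08 and 0.023 (limma). All 11 genes of lysosomal and intracellular sterol transport fell, with a median of -0.40, against 19.3% of all genes called lower. All 11 were also lower under poly-A and hybridization scaling, where 71.2% and 64.9% of all genes were lower. GRAMD1C, a sterol carrier at membrane contacts, had 5.28, 4.92 and 4.83 at 25 µg/mL, against 6.66, 6.67 and 6.70 in medium (-1.66 ± 0.11). LIPA, the lysosomal acid lipase that frees cholesterol from esters, had 9.61, 9.62 and 9.70, against 10.41, 10.34 and 10.39 in medium (-0.74 ± 0.07). NPC2, the partner of NPC1 in lysosomal export, had 11.68, 11.62 and 11.64, against 12.34, 12.31 and 12.46 in medium (-0.72 ± 0.07). The caveolin gene CAV1 changed by -0.57 ± 0.14. The groups did not overlap in GRAMD1C, LIPA, NPC2 or CAV1. With the probe set of largest variance per gene, 9 of the 11 were lower, and with the mean of its probe sets LIPA changed by -0.42.

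Of 8 measured genes of the LXR and oxysterol response, 6 fell and 0 rose, against 19.3% and 14.1% of all genes. Their median was -0.43. LXR is the receptor that responds to oxysterols when cholesterol is abundant. ABCA1, a cholesterol exporter and LXR target, changed by -1.65 ± 0.12, NR1H3, which encodes LXR-alpha, by -0.62 ± 0.08 and CYP27A1, an oxysterol-forming enzyme, by -0.44 ± 0.09. MYLIP, another target, changed by -0.54 ± 0.09, but its probe sets disagreed, with 1.17 (adjusted p = 4.7e-05) for the one of largest variance and -0.18 (adjusted p = 0.074, not called) for their mean. When the probe sets of each gene were averaged, this list held 3 lower genes and a median of -0.13. Of 10 measured genes of SREBP processing and sterol sensing, 6 fell and 1 rose, against the same 19.3% and 14.1% of all genes. MBTPS2, a protease that releases SREBP in the Golgi, had 9.52, 9.59 and 9.58 at 25 µg/mL, against 10.12, 10.08 and 10.18 in medium (-0.57 ± 0.07). The COPII coat genes SEC24A and SEC24D changed by -0.53 ± 0.08 and -0.79 ± 0.21. SPRING1, a regulator of SREBP processing, rose by 0.77 ± 0.10, a call lost under poly-A (0.15) and hybridization scaling (0.34). With the mean of probe sets, values moved to -0.79 for ABCA1, -0.31 for MBTPS2, -0.47 for SEC24D and 0.36 for SPRING1, all still called, and SEC24A was -1.53 with its probe set of largest variance.

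Of 12 fatty acid genes, 3 (25%) were lower and 2 (16.7%) higher, near the 19.3% and 14.1% of all genes, with a median of -0.08. The lower count depended on the setting. It was 4 with quantile normalization, dim genes left out or the probe set of largest variance. With the mean of probe sets, a variance trend on intensity or array weights it was 5. Under poly-A and hybridization scaling it was 9 and 8, where 71.2% and 64.9% of all genes were lower. The acetyl-CoA synthetase gene ACSS2 had 7.16, 7.42 and 7.22 at 25 µg/mL, against 8.32, 8.25 and 8.54 in medium (-1.10 ± 0.13), the glycerolipid gene GPAM changed by -1.02 ± 0.11 and the desaturase gene SCD by -0.44 ± 0.08. The elongase gene ELOVL6 rose by 0.60 ± 0.13, against -0.01 and 0.18, neither called, after poly-A and hybridization scaling, and 0.27 (adjusted p = 0.11) with the mean of its probe sets. The non-sterol isoprenoid branch had 1 of 10 genes lower and 1 higher, with a median of 0.07, against -0.55 and -0.36 after poly-A and hybridization scaling. GGPS1, which makes geranylgeranyl diphosphate, changed by -0.28 ± 0.09, and PDSS1, which makes the side chain of coenzyme Q, by 0.68 ± 0.10. The PDSS1 call was lost under both control scalings (0.06 and 0.25), and its change was 0.28 with the mean of its probe sets. GGPS1 was 0.41 (adjusted p = 0.013) with the probe set of largest variance and 0.06 (adjusted p = 0.63) with the mean, so its direction depends on the probe set. With the probe set of largest variance this list held 0 lower and 4 higher genes.

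**Figure D5:**
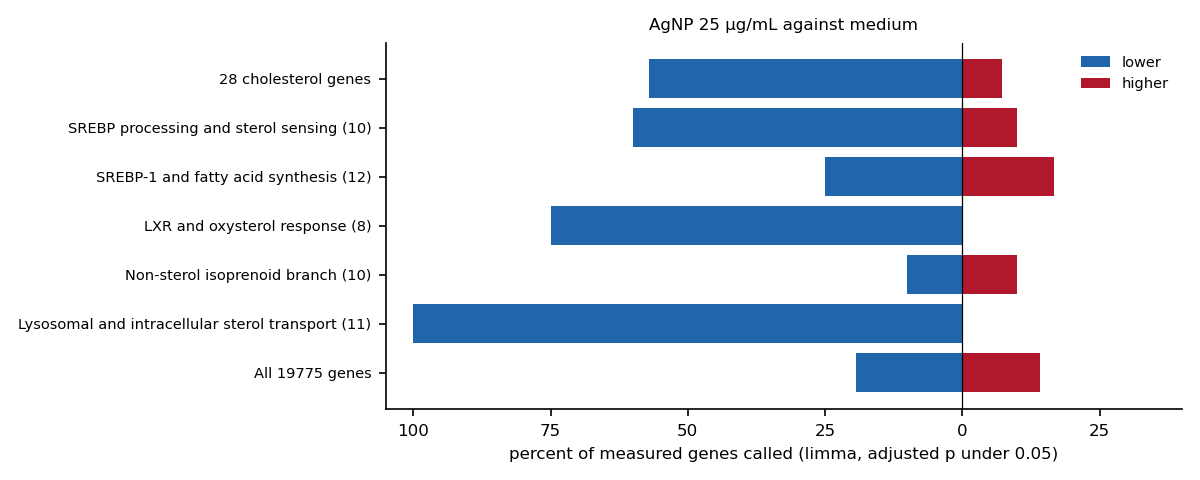
Percent of measured genes called lower (left) and higher (right) at 25 µg/mL against medium for the 28 cholesterol genes, the 5 other lists (number measured in brackets) and all 19775 genes. The 28 genes have 57.1% lower and 7.14% higher, against 19.3% and 14.1% of all genes.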

How the data were processed

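Biotinylated cRNA from 250 ng RNA of each of 12 samples was hybridised to Affymetrix arrays of 54675 probe sets. The deposited values are log2 expression values that the authors made with RMA in Partek software, per the submitters' processing notes, with settings and versions not given in the sources used here. RMA normalizes between arrays, which sets the array distributions nearly equal (means 5.57, medians 4.72 to 4.79) and removes any change of total RNA. Arrays carry no counting depth, and their number, 3 per group, limits the precision. Replicate numbers follow accession order and pair no samples. No 2 arrays held identical values.

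Symbols came from the platform annotation, 41091 probe sets having 1 symbol and 1801 several, and 41037 symbols were updated through gene ID. Among a gene's 1-symbol probe sets, that of highest mean represented it. A 4-group model was fitted to all 19775 genes (limma 3.58.1, R 4.3.3, 8 residual and 6.25 prior degrees of freedom) with Benjamini-Hochberg adjustment within each comparison. The fit was also run on simulated data with known changes. Their noise was independent between genes, without shifts of whole arrays, so that run does not bear on such shifts. Intervals are at 95%. All measured members are named, with up to 4 called genes of each of 5 other lists, those with the largest change at 25 µg/mL against medium. Motifs were searched with Python 3.11.15 and figures drawn with matplotlib 3.10.9. The members and lists were chosen with earlier results of these data known. Alternatives covered array scaling, dim genes, probe set choice, variance model, threshold, samples in the fit and each array left out.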

Additional observations from a re-analysis of the deposited data

Results flagged for a closer look

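The spiked-in control probe sets, which belong to no gene of the cells, read higher at 25 µg/mL than in medium by 0.61 (poly-A) and 0.43 (hybridization) on the log2 scale. They were noted because they lie outside the gene measurements and differ from the control group. The poly-A controls had means of 6.21, 5.56 and 6.31 on the 25 µg/mL arrays, against 5.31 to 5.54 on the medium arrays. Their part in the lower values of the cholesterol genes was not tested.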

How the results depend on the processing

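No paired analysis was possible because the array titles carry letters that no 2 groups share. With each array centred on the poly-A or the hybridization controls, the genes lower at 25 µg/mL numbered 26 and 25 against medium and 27 and 26 against ions, and 0 were higher in these comparisons or against 2.5 µg/mL. Under the same scalings 71.2% and 64.9% of all genes were lower against medium and 87.8% and 69.9% against ions. At an adjusted p under 0.01 the higher genes numbered 0 against medium, 0 against 2.5 µg/mL and 1 against ions, and with only the 2 groups in the fit 1 against ions. Against 2.5 µg/mL, 2 were higher with dim genes left out, the mean of probe sets, the probe set of largest variance or array weights. With the probe set of largest variance 3 were higher against medium, HMGCS1 among them, and 3 against ions. With each array left out in turn, 14 to 16 genes were lower and 0 to 1 higher against medium, 15 to 19 lower and 0 to 2 higher against 2.5 µg/mL, and 14 to 16 lower and 1 to 2 higher against ions. The 2.5 µg/mL and ion groups had 0 of the 28 genes called against medium under every alternative run.

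The sign against medium turned, under poly-A and hybridization scaling, in SREBF1 (-0.26 and -0.078), NPC1 (-0.31 and -0.12), PMVK (-0.50 and -0.31) and SC5D (-0.59 and -0.41). With the mean of probe sets it turned in HMGCS1 (0.22) and SC5D (-0.10), and with the probe set of largest variance in HMGCS1 (0.55), IDI1 (0.18), NSDHL (0.056) and SC5D (-0.23). With single arrays left out, MVK ranged between -0.090 and 0.043 and SC5D between -0.00065 and 0.049, and with median centring SC5D was -0.0056. Of the recomputed fold changes of the 28 genes at 25 µg/mL against medium, 367 kept direction and call, 17 turned, 18 gained a call and 16 lost one. The cause was not tested. With the mean of probe sets EBP was -0.30, DHCR7 -0.28, NPC1L1 -0.23 and SOAT1 -0.58, and with that of largest variance SQLE was -1.10 and LSS -0.74, all still called. Genes near the bottom of the scale, ABCG5 and ABCG8, have no stated background.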

Other observations

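Probe sets not used for the gene values differed from them in several members, and are given as values at 25 µg/mL and in medium, with adjusted p over all probe sets (limma). A dim NPC1 probe set averaged 5.15 at 25 µg/mL and 3.82 in medium, a log2 difference of 1.33 (adjusted p = 3.1e-07), against 0.30 for the probe set used. A second HMGCS1 probe set averaged 9.36 at 25 µg/mL and 8.81 in medium (adjusted p = 0.0501). When it stood for the gene, its adjusted p over all genes was 0.042, a call. A MVK probe set averaged 5.09 at 25 µg/mL and 5.82 in medium (-0.74, adjusted p = 0.0097), whereas the one used changed by -0.04. Of 4 EBP probe sets, the 2 brightest had log2 differences of -0.69 and -0.68, and a dimmer one of 0.22 (adjusted p = 0.26). In 8 of the 15 genes with several probe sets all had the same sign. The probe sets' target positions were not used here.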
